A study of Papio anubis with 60 samples.

Results

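The regions described here are 22 blocks of the baboon autosomes, 0.5 to 4 Mb long, that were far more densely covered by H3K9me3 peaks in induced pluripotent stem cells (iPSC) than in embryonic stem cells (ESC). Chromosomes 1 to 20 were divided into 5196 bins of 500 kb. A bin was selected where the part covered by iPSC H3K9me3 peaks exceeded that covered by ESC H3K9me3 peaks by at least 20% of the bin, and adjacent selected bins were joined. The rule selected 62 bins, or 1.19% of all bins, on 12 of the 20 autosomes. The joined blocks span 31 Mb and hold 34484 of the 2116963 peaks of the 8 deposited lists. Each block is named by its chromosome and a letter in order along it. H3K9me3 in both cell types chose the blocks, so its levels in them are a description, whereas H3K4me3, H3K27ac and H3K27me3 played no part in the choice.

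Histone modifications were mapped by chromatin immunoprecipitation with sequencing (ChIP-seq) in pluripotent cells of Papio anubis, the olive baboon. The ESC were lines B4 and B15, and the iPSC, which are made by reprogramming somatic cells, were lines 160-2 and M14939#3; all were grown on feeder cells without any further treatment given in the labels. Per the labels, 60 libraries of 50000 cells each form 10 groups of 6 (each cell type with 1 of 4 marks or as input, 3 replicates for each of 2 lines), and the chromatin was cut with micrococcal nuclease. The values used are 8 lists of peaks, with a single pooled list per mark in each kind of cell, so that no list has a replicate, line and cell type cannot be told apart, and no test between cell types was possible; intervals given below cover counting error only, and peaks that lie in the same block are not independent of each other.

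H3K9me3 marks heterochromatin, the compact and mostly silent part of the genome, and megabase domains of H3K9me3 in somatic cells are known to resist the reprogramming factors. H3K27me3 is laid down by Polycomb repressive complex 2 and marks repressed developmental genes, in pluripotent cells often together with H3K4me3 in what are called bivalent domains. H3K4me3 marks promoters, with wide domains at CpG-rich ones, and H3K27ac marks active promoters and enhancers. No label or file header names the genome build behind the peaks, so regions are given by position and marks, without genes or sequence.

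Of the 22 blocks, 5 were single bins and 6 were at least 2 Mb long, and these 6 held 16 of the 31 Mb. The longest, block 8b, runs from 131 to 135 Mb of chromosome 8. Chromosomes 10 and 12 carried 4 blocks each and chromosome 20 carried 3. Of the 62 block bins, 35 (56.5%) lay within 10 Mb of the first base or the furthest peak of their chromosome, where 15.8% of all autosomal bins lie. Bins of the same block are not separate cases, and counted by block 9 of 22 (40.9%) lay that close. Block 3b, at 179.5 to 180.5 Mb of chromosome 3, ended 0.838 Mb before the furthest peak of that chromosome, and block 12a began 1 Mb from the start of chromosome 12. By contrast, block 1a lay 94.0 Mb from the nearest end of chromosome 1.

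The threshold cut through a thin range of values. In the selected bins H3K9me3 coverage was 20.4 to 81.0 percentage points higher in iPSC, with a median of 49.9. The least of them, at 54.5 to 55 Mb of chromosome 10, stood at 20.4 points, and the next at 23.3 and 23.5 points. The nearest bins outside the rule stood at 19.3 points (166.5 to 167 Mb of chromosome 1), 18.6 points (61 to 61.5 Mb of chromosome 14) and 17.4 points (90 to 90.5 Mb of chromosome 10). In all, 6 bins lay between 15 and 20 points. The opposite difference, at least 20 points higher in ESC, was found in 6 bins of the autosomes.

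In the 5 blocks with the largest difference in H3K9me3, the other 3 marks differed as well. Block 20a, at 5 to 8.5 Mb of chromosome 20, was covered by H3K9me3 over 9.18% in ESC and 79.9% in iPSC. In the same block H3K27me3 covered 2.09% in ESC and 45.3% in iPSC, H3K4me3 4.55% and 1.64%, and H3K27ac 1.91% and 0.144%. Block 8b had 10.03% H3K9me3 in ESC and 76.4% in iPSC, with 0.816% and 39.8% H3K27me3. Its H3K4me3 coverage was 2.77% in ESC and 1.04% in iPSC, and its H3K27ac coverage 1.73% and 0.254%. Block 3a, at 175 to 177 Mb of chromosome 3, had 13.8% H3K9me3 in ESC and 79.4% in iPSC, with 1.57% and 37.5% H3K27me3, 4.003% and 1.27% H3K4me3, and 2.53% and 0.135% H3K27ac. Both repressive marks were thus denser in iPSC and both active marks sparser in each of these blocks.

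The other 2 of the 5 had the same arrangement. Block 20b, at 12 to 13 Mb of chromosome 20, had 12.0% H3K9me3 in ESC and 76.6% in iPSC, 1.80% and 35.7% H3K27me3, 4.17% and 1.86% H3K4me3, and 2.44% and 0.442% H3K27ac. Block 19a, at 22.5 to 24 Mb of chromosome 19, had 16.8% and 74.3% H3K9me3, 3.19% and 41.0% H3K27me3, 6.17% and 2.00% H3K4me3, and 2.81% and 0.597% H3K27ac. At the other end of the order, block 14a, at 60.5 to 61 Mb of chromosome 14, had 7.79% H3K9me3 in ESC and 32.4% in iPSC, and only 4.72% iPSC H3K27me3 against 0.403% in ESC.

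**Figure D1:**
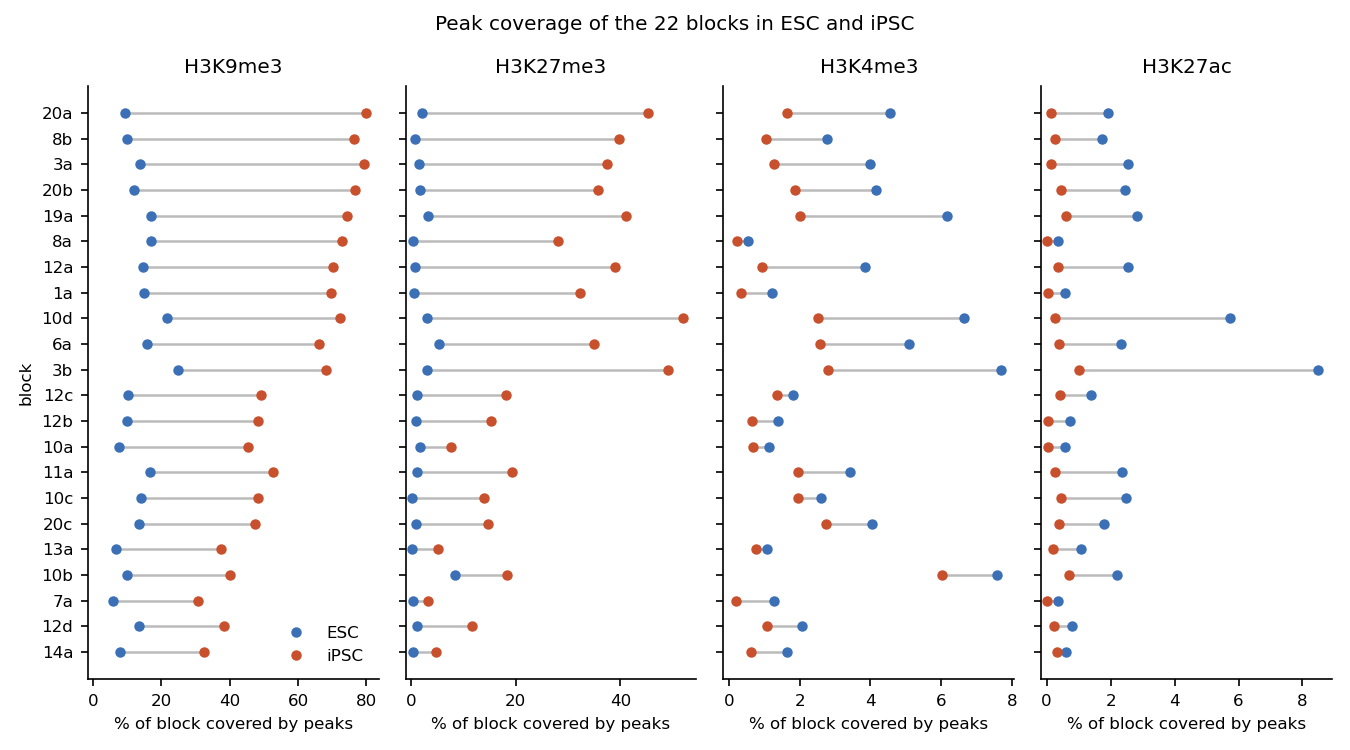
Percent of each of the 22 blocks covered by peaks of H3K9me3, H3K27me3, H3K4me3 and H3K27ac in ESC (blue) and iPSC (orange), with blocks ordered by their difference in H3K9me3, which chose them. In all 22 blocks H3K27me3 coverage was higher and H3K4me3 and H3K27ac coverage lower in iPSC. Each mark has its own axis.

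Over all blocks together, H3K9me3 coverage was 12.8% in ESC and 63.2% in iPSC. H3K4me3 covered 3.79% of the blocks in ESC against 1.73% in iPSC. The iPSC to ESC ratio was 0.457, where on the rest of the autosomes it was 1.05. Every one of the 62 block bins had less H3K4me3 in iPSC, and 33.2% of all autosomal bins did. H3K27ac covered 2.25% in ESC against 0.306% in iPSC, and the ratio was 0.136, with 0.533 elsewhere. All 62 block bins had less H3K27ac in iPSC, but so had 99.5% of all autosomal bins, so for H3K27ac the direction says nothing about the blocks and only the size of the difference stands apart. With the ESC H3K27ac list, the longer one, shortened to as many peaks as iPSC had by dropping those with the lowest −log10 q, its coverage of the blocks was 1.24% against 0.306% in iPSC.

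H3K27me3 was the mark with the largest difference among those the rule did not use. The blocks were covered by H3K27me3 over 2.06% in ESC, close to the 2.08% of the rest of the autosomes, and over 30.7% in iPSC, where the rest had 3.14%. All 62 block bins had more H3K27me3 in iPSC, and 79.6% of all autosomal bins did. A difference of at least 10 points was much rarer on the autosomes: it was found in 116 bins, or 2.23%, of which 52 were block bins. Of the 64 such bins outside the blocks, 9 were the first bin beside a block, and 52 were among the 61 bins outside the blocks with at least 30% iPSC H3K9me3 coverage. A difference of this size was thus about as common in those dense bins as in the 62 block bins. On the autosomes the iPSC H3K27me3 list holds 131632 peaks and the ESC list 51150. With the autosomal iPSC list cut to the number of the ESC list, coverage of the blocks was 17.3% in iPSC, and the difference from ESC was 15.2 points in place of 28.7.

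The iPSC H3K27me3 peaks lay almost wholly within the iPSC H3K9me3 peaks. Of the base pairs covered by iPSC H3K27me3 in the blocks, 95.05% were also covered by iPSC H3K9me3, and on the rest of the autosomes 60.5% were. In the bins outside the blocks with at least 30% iPSC H3K9me3 coverage (dense bins) the value was 94.8%, so this overlap was as complete there. Inside the blocks 46.3% of the sequence on iPSC H3K9me3 peaks was covered by H3K27me3, against 4.13% of the sequence off them, a ratio of 11.2. The ratio was 18.3 in the other dense bins and 22.8 on all other autosomal sequence. In ESC the corresponding values in the same blocks were 2.60% and 1.98%, so the ESC lists showed little such overlap. Whether both marks lay on the same nucleosomes, in the same cells or in the same iPSC line cannot be told apart from pooled lists. Of the 11074 iPSC H3K27me3 peaks in the blocks, 94.6% had no ESC H3K27me3 peak, where 82.7% of the iPSC peaks on the autosomes and 96.8% of those in the other dense bins had none. Their median width was 567 bp, against 434 bp on the rest of the autosomes and 497 bp in the other dense bins.

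Across the 22 blocks, the difference in H3K9me3 and the difference in H3K27me3 went together (Pearson r 0.843, Spearman rho 0.842, and r 0.820 without the 2 blocks farthest from the median). This was the strongest of 5 relations examined with the difference in H3K9me3. Its r was -0.46 with the iPSC to ESC ratio of H3K4me3 coverage and -0.43 with that of H3K27ac, and 0.39 and 0.31 with the shares of ESC H3K4me3 and H3K27ac peaks absent in iPSC. The points of the first relation share the same 4 lists, the blocks were chosen by the first of these measures, and both marks come from the same cultures, so this is given as a description. The 10 blocks with a difference in H3K9me3 of at least 50 points had a difference in H3K27me3 of 27.7 to 48.9 points, with a median of 36.8. In the other 12 blocks it ranged from 2.89 points in block 7a to 46.0 points in block 3b, with a median of 12.1.

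A second set of bins shows how the blocks differ from sequence that is dense in H3K9me3 in both cell types. Outside the blocks, 61 autosomal bins had at least 30% iPSC H3K9me3 coverage, on average 50.6% ± 15.9 in iPSC and 51.5% ± 19.2 in ESC (SD over bins). In these bins iPSC H3K27me3 coverage was 19.9% ± 10.4 against 1.01% ± 2.34 in ESC, and all 61 had more of it in iPSC. More H3K27me3 on dense H3K9me3 in iPSC was therefore also found where H3K9me3 itself was as dense in ESC. H3K4me3 was 3.74% ± 3.13 in ESC and 2.95% ± 2.15 in iPSC in these bins, with 40 of 61 lower in iPSC.

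Block edges were placed more finely than the bins allow. On a grid of 10 kb, each of the 44 edges was put where iPSC H3K9me3 coverage over the 100 kb inside exceeded that over the 100 kb outside by the most, within 500 kb of the bin edge. The median fine edge lay 180 kb from its bin edge, and the sequence between the fine edges summed to 32.9 Mb. At 26 of the 44 edges the fine edge lay outside the bin edge. The step ranged from 13.1 to 84.0 points. At 23 edges of 14 blocks, called clear here by a limit chosen after seeing the data, the step was at least 40 points, with a median of 60.8. The largest, 84.0 points, was the left edge of block 12a, at 0.69 Mb of chromosome 12, where iPSC H3K9me3 covered 4.55% outside and 88.6% inside.

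**Figure D2:**
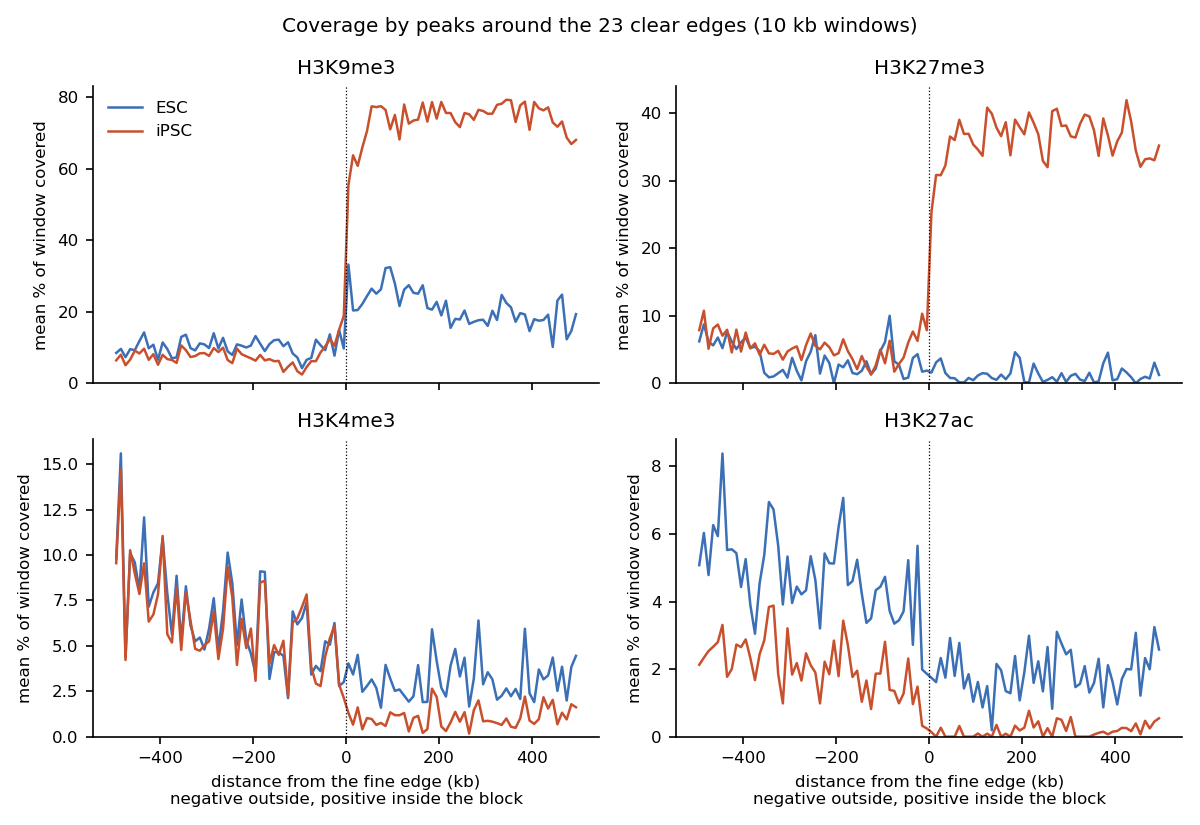
Mean percent of 10 kb windows covered by peaks of each mark in ESC (blue) and iPSC (orange) around the 23 clear edges, against the distance from the fine edge in kb, with the block on the right. The edges were placed by iPSC H3K9me3. iPSC H3K27me3 was higher inside at all 23 edges, iPSC H3K4me3 lower at 21 and iPSC H3K27ac lower at 19.

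At the clear edges iPSC H3K27me3 changed over the same short distance, while the active marks were already lower just outside. In the 20 kb on each side of the edge, mean iPSC H3K9me3 coverage was 16.9% outside and 59.6% inside, and mean iPSC H3K27me3 coverage 9.10% and 28.1%. When the H3K27me3 edge was sought by itself in the same way, it lay within 20 kb of the H3K9me3 edge at 14 of the 23 clear edges and at the same grid position at 9. Over all 44 edges it lay within 20 kb at only 18. The median distance was 50 kb over all edges and 10 kb at the clear ones. Mean iPSC H3K4me3 coverage was 2.50% in the 20 kb outside and 0.985% in the 20 kb inside, where ESC had 2.90% and 3.73%. Mean iPSC H3K27ac coverage was 0.283% outside and 0.0674% inside, where ESC had 1.93% and 1.68%. Farther out, at 20 to 50 kb outside, mean H3K4me3 coverage was 5.31% in iPSC and 5.53% in ESC. Mean H3K27ac coverage there was 1.59% and 4.53%. Part of the fall in both active marks thus lay outside the edge and was also present in ESC.

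The active marks in ESC also differed across the place where the iPSC edge fell. Over 100 kb on each side, ESC H3K4me3 coverage was lower inside at 17 of the 23 clear edges, with a median of 4.32% outside and 2.82% inside, and ESC H3K27ac was lower inside at 18. ESC H3K9me3 was higher inside at 19 of 23, with medians of 9.53% and 18.7%. At the left edge of block 12a ESC H3K9me3 covered 9.55% outside and 79.6% inside, and at the left edge of block 10d 8.56% and 48.7%, so at these edges the iPSC block began at dense H3K9me3 that ESC had as well. The rule on bins used ESC H3K9me3, and these values are a description. A firm ESC H3K4me3 peak, one with −log10 q of at least 5, lay within 10 kb of 16 of the 23 clear edges, and 65.9% of all autosomal positions are that close to one, so the count was near the background. A firm iPSC H3K4me3 peak lay that close to 9 of the 23, against 66.2% of positions.

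Beyond the edges, coverage by iPSC H3K9me3 and H3K27me3 was nearer to the autosomal level in each further bin. In the first bin outside a block, of which there were 44, the H3K9me3 difference was still at least 10 points at 14 and below 0 at 17. In the second bin it was below 0 at 36 of 42. Over all autosomal bins the difference was below 0 in 96.3%, so both flanking bins were below it less often than that. Mean iPSC H3K27me3 coverage was 9.17% ± 8.79 in the first bin, 5.53% ± 8.75 in the second and 3.597% ± 3.15 in the third (SD over 44, 42 and 38 bins). Mean iPSC H3K4me3 coverage was 4.81% ± 3.09 in the first bin and 6.12% ± 4.04 in the second, against 5.399% ± 3.27 and 6.25% ± 4.12 in ESC. Not every edge was a border of this kind: at the left edge of block 19a, iPSC H3K9me3 was 78.4% outside and 91.5% inside, with 89.3% and 95.2% in ESC, so that H3K9me3 shared by both cell types continued beyond it.

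**Figure D3:**
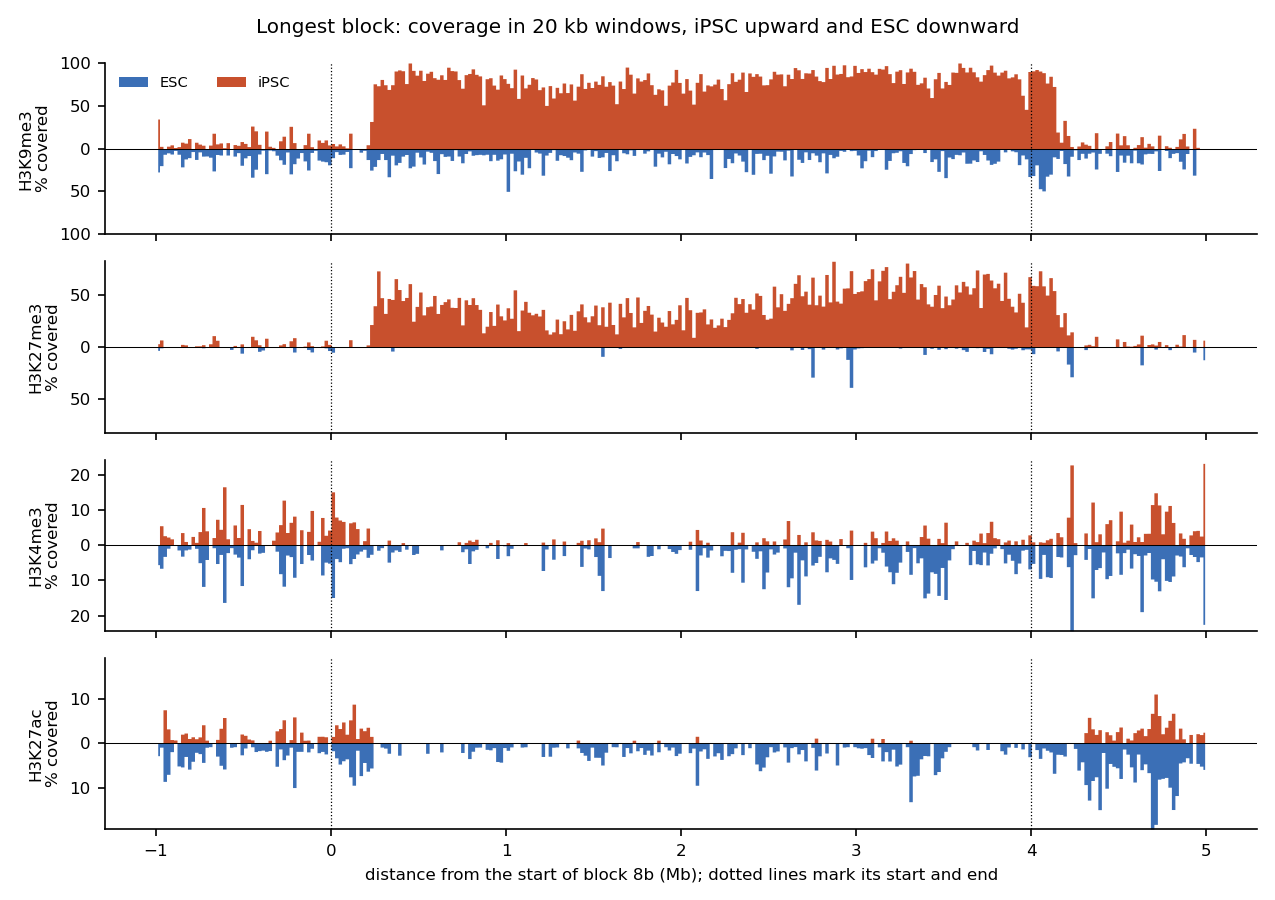
Percent of 20 kb windows covered by peaks in the 4 Mb block 8b and 1 Mb on each side, with iPSC drawn upward (orange) and ESC downward (blue), against the distance from the block's start in Mb. The largest steps of iPSC H3K9me3 and H3K27me3 lay 0.23 Mb inside the bin edge at the start and 0.14 Mb beyond that at the end. Between these points iPSC H3K27ac covered 0.0410%. Over the 100 kb outside the step at the end, iPSC H3K27me3 still covered 21.9% and iPSC H3K9me3 15.6%.

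Inside the blocks the iPSC H3K9me3 list was a close series of peaks. The 10077 peaks had a median width of 991 bp, against 511 bp on the rest of the autosomes and 972 bp in the 61 other dense bins. Joined over distances of up to 3 kb, they formed a stretch of 2044 kb in block 8b, and block 20b was 1 single stretch from end to end. In blocks 3a and 20a the longest stretches were 1665 kb and 1611 kb. The 3 weaker blocks 7a, 13a and 14a held no stretch over 100 kb, and the longest in block 7a was 60.7 kb.

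Gaps of at least 10 kb without any iPSC H3K9me3 peak were found 58 times, in 11 of the 22 blocks. Of these, 40 (69.0%) held a firm H3K4me3 peak of either cell type. For scale, 65.9% of all autosomal positions lie within 10 kb of a firm ESC H3K4me3 peak. That background uses a fixed distance and ESC peaks alone, while the gaps vary in length and count peaks of either cell type. Whether the gaps stand apart therefore cannot be read from these shares. The longest gap measured 95.4 kb, at chr8:131113954-131209314 in block 8b. It was covered by iPSC H3K4me3 over 3.99% and by iPSC H3K27ac over 4.09%, where ESC had 2.98% and 5.92%. However, this gap lies at the start of the 500 kb bin and outside the fine edge, and the same was true of nearly all gaps. Only 2 of the 58 lay between the fine edges, one of 13.6 kb in block 1a and one of 13.3 kb in block 13a, and both were without H3K4me3 and H3K27ac in either cell type.

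Between the fine edges the gaps were short. There were 9511 of them within the blocks, with a median of 656 bp, and 95% were at most 2481 bp long. Taking gaps of at least 2 kb, a length chosen after seeing the data, 753 were found. iPSC H3K4me3 covered 1.101% of these gaps and 1.60% of the rest of the sequence between the fine edges, and iPSC H3K27ac 0.107% and 0.264%. ESC H3K4me3 covered 2.21% and 3.90%. iPSC H3K27me3 covered 2.84% of the gaps and 35.9% of the rest. A firm H3K4me3 peak of either cell type lay in 12.0% of the gaps. Of the 1577 iPSC H3K4me3 peaks in the blocks, 1337 (84.8%) were touched by an iPSC H3K9me3 peak, against 11.6% on the rest of the autosomes. The rule chose the blocks by iPSC H3K9me3, which covered 63.2% of them, so this share says little about the H3K4me3 peaks themselves.

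Most ESC H3K4me3 peaks of the blocks had no counterpart in iPSC. Of 3186 ESC H3K4me3 peaks, 2088 (65.5%, 95% Wilson interval 63.9 to 67.2) were not overlapped by any iPSC H3K4me3 peak, against 28.8% of all such peaks on the autosomes. The share was 37.2% in the first bin outside the blocks, 30.9% in the second and 44.6% in the 61 other dense bins. By block it ranged from 45.2% in block 10b (119 of 263) to 88.1% in block 1a (37 of 42), so each of the 22 blocks lay above the autosomal share. Block 20a, which held the most ESC H3K4me3 peaks, had 454, of which 307 (67.6%) were absent in iPSC.

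Few ESC H3K27ac peaks of the blocks were kept. Of 2743 ESC H3K27ac peaks, 2430 (88.6%, interval 87.3 to 89.7) had no iPSC H3K27ac peak, against 58.2% on the autosomes, 66.9% in the first bin outside, 58.9% in the second and 66.1% in the other dense bins. By block the share ranged from 66.7% in block 14a (8 of 12) to 100% in blocks 7a, 8a and 10a, which held 7, 8 and 11 ESC peaks. The 313 kept peaks were spread over 19 blocks, with 34 each in blocks 8b and 6a, 33 in block 3b and 32 in block 10b.

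Peaks that iPSC had and ESC lacked were not more common in the blocks. Of 1577 iPSC H3K4me3 peaks there, 373 (23.7%) had no ESC peak, against 30.3% on the autosomes. Of 401 iPSC H3K27ac peaks, 76 (19.0%) had none, against 24.7%. ESC H3K27me3 peaks, by contrast, mostly had an iPSC counterpart in the blocks: 186 of 759 (24.5%) were absent in iPSC. On the autosomes 63.3% were absent, and in the other dense bins 42.5%. However, iPSC H3K27me3 was so dense in the blocks that it also touched 72.3% of ESC H3K4me3 peaks and 76.5% of ESC H3K9me3 peaks. The overlap therefore cannot show that ESC H3K27me3 sites in particular were kept.

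The comparison was repeated among peaks of like strength. ESC peaks were divided into 5 groups of equal size by their −log10 q over the autosomes, which is the authors' value. In the weakest group, 83.6% of H3K4me3 peaks in the blocks and 51.4% on the rest of the autosomes were absent in iPSC. In the strongest group, 17.9% (85 of 476) in the blocks and 2.50% elsewhere were absent, with 6.55% in the other dense bins. For H3K27ac the strongest group had 66.5% absent in the blocks (282 of 424), 24.6% elsewhere and 29.3% in the other dense bins. In each of the 5 groups and for both marks the share was highest in the blocks. The intervals of the blocks and of the other dense bins did not overlap. They cover counting error only, and peaks of the same block are not independent, so this is no test between the sets.

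**Figure D4:**
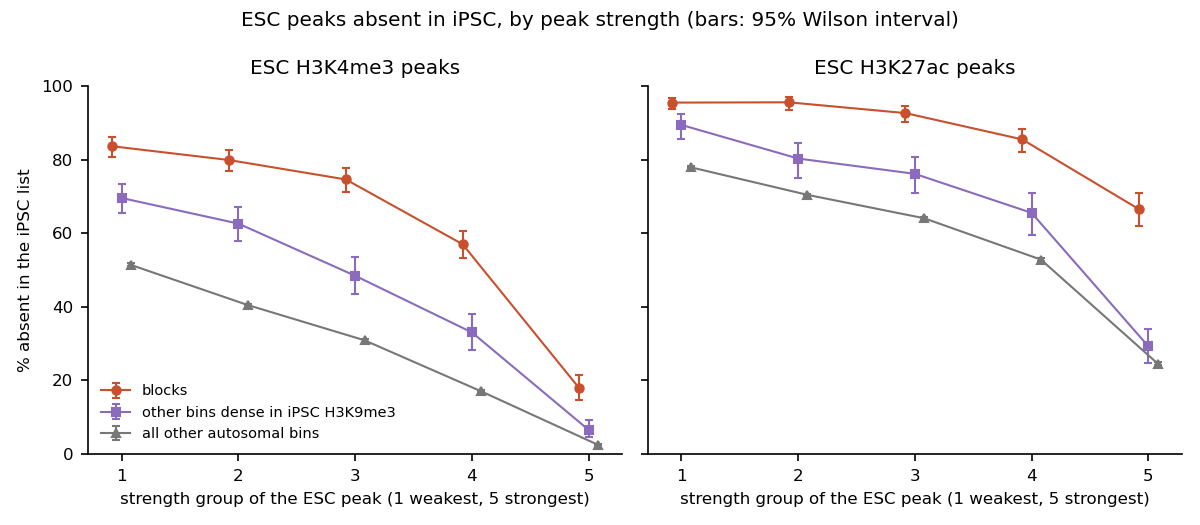
Percent of ESC H3K4me3 (left) and H3K27ac (right) peaks without an iPSC peak of the same mark, by strength group of the ESC peak, in the blocks (circles), in 61 other bins dense in iPSC H3K9me3 (squares) and in all other autosomal bins (triangles). Bars are 95% Wilson intervals, which cover counting error only. In the strongest group 66.5% of H3K27ac peaks in the blocks were absent, against 24.6% elsewhere.

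The share of absent peaks was higher inside the fine edges than outside them at every depth. ESC H3K4me3 peaks in block bins but outside the fine edges were absent in 39.5% of 281 cases. The share was 71.9% in the first 100 kb inside, 70.1% from 100 to 250 kb, 65.7% from 250 to 500 kb and 68.5% beyond that. In the strongest group none of 50 peaks outside the fine edges was absent (Wilson upper bound 7.13%), against 51 of 220 (23.2%) at 500 kb or more inside. For H3K27ac the share was 73.3% outside the fine edges and 95.1% (90.2 to 97.6) in the first 100 kb inside. It was 89.6% from 100 to 250 kb, 85.5% (82.7 to 87.9) from 250 to 500 kb and 92.3% (90.7 to 93.6) beyond that. In the strongest H3K27ac group the shares at these 4 depths were 78.3%, 73.3%, 57.6% and 73.5%. The shorter blocks have no sequence 500 kb or more inside, so the depths draw on different blocks. Differences between depths and between blocks cannot be told apart here.

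Absence in iPSC was not limited to ESC peaks on which an iPSC H3K9me3 peak lay. In the blocks 66.7% of 2808 ESC H3K4me3 peaks touched by iPSC H3K9me3 were absent, and 57.1% (52.1 to 62.0) of the 378 not touched. On the rest of the autosomes the values were 45.1% and 25.6%. For H3K27ac they were 89.6% and 81.9% (77.5 to 85.5) in the blocks and 56.4% and 58.0% elsewhere. An ESC peak off H3K9me3 within a block was thus absent more often than a peak on H3K9me3 outside the blocks.

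The marks that accompanied a peak in ESC also differed between kept and absent peaks. ESC H3K4me3 peaks that touched ESC H3K27me3, the bivalent arrangement, were absent in 36.1% of 385 cases, and those that did not in 69.6% of 2801. On the rest of the autosomes the values were 10.6% and 30.9%. The peaks with H3K27me3 were also stronger, with a median −log10 q of 11.3 against 7.26. Among ESC H3K27ac peaks, those on ESC H3K4me3, as at promoters, were absent in 81.3% of 1175 cases, and those without H3K4me3, as at enhancers away from promoters, in 94.1% of 1568. Elsewhere these shares were 42.2% and 68.6%. In the blocks the H3K27ac peaks on H3K4me3 were also stronger, with a median −log10 q of 6.91 against 5.38. Neither split was compared among peaks of like strength. Of the 1175 H3K27ac peaks on H3K4me3, 506 (43.1%) were overlapped by iPSC H3K4me3, although only 220 were overlapped by iPSC H3K27ac.

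Firm ESC H3K4me3 peaks were joined over up to 1 kb into domains, so that a promoter counts once. The blocks held 1640 domains, of which 920 (56.1%) had no iPSC H3K4me3 peak, against 21.6% on the autosomes. The share was lower for wider domains, but a wider domain has more room for the 1 bp of overlap that counts as kept. How much of the trend comes from width alone was not tested. Domains of up to 500 bp were absent in 71.8% of 984 cases, those of 500 to 1000 bp in 44.7% of 318 and those of 1000 to 2000 bp in 28.7% of 216. Elsewhere the same classes had 35.5%, 8.13% and 2.72% absent. Of 107 domains of 2000 to 5000 bp, 9 (8.41%) were absent, and of 15 wider ones none was (Wilson upper bound 20.4%).

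Wide domains were thus mostly kept, but less of them was covered. Only 0.233% of all domains over 2 kb on the autosomes, 45 in number, were absent in iPSC, and 9 of these lay in the blocks. Of the 122 wide domains in the blocks, 116 (95.1%) had less of their length covered by H3K4me3 in iPSC, against 68.3% on the autosomes. The median cover was 68.4% in ESC and 35.0% in iPSC, where the rest of the autosomes had 80.1% and 77.1%. Of the 85 wide domains with ESC H3K27ac, 49 (57.6%, 47.0 to 67.6) had no iPSC H3K27ac, against 17.9% on the autosomes. An iPSC H3K9me3 peak touched 114 of the 122 (93.4%), with a median cover of 73.9%. On the rest of the autosomes 21.9% were touched, with a median cover of 0%. The blocks were chosen by iPSC H3K9me3, so this contrast is a description.

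The 5 widest domains that were absent in iPSC carried H3K27ac in ESC and dense H3K9me3 in iPSC. The widest, of 3.81 kb at chr10:88794934-88798744 in block 10d, was covered by ESC H3K4me3 over 74.1% and by ESC H3K27ac over 9.97%. In iPSC it had neither, and H3K9me3 covered 82.3% and H3K27me3 67.3% of it, where ESC had 0% and 18.1%. The next, of 3.02 kb at chr12:24102616-24105632 in block 12d, had 43.3% H3K4me3 in ESC. Its H3K9me3 cover was 15.0% in ESC and 83.7% in iPSC, while its H3K27me3 was lower in iPSC, with 13.6% against 27.5% in ESC. The third, of 2.83 kb at chr20:7320807-7323636 in block 20a, had 42.3% H3K4me3 and 27.4% H3K27ac in ESC, and in iPSC 100% H3K9me3 and 99.3% H3K27me3. Those of 2.40 kb at chr3:179697148-179699545 and of 2.28 kb at chr3:176201407-176203690 had 63.6% and 55.0% H3K4me3 in ESC and 81.2% and 81.8% H3K9me3 in iPSC.

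The 5 widest domains that were kept had ESC H3K27me3 over nearly their whole length and no H3K27ac in either cell type. They do not stand for all kept wide domains. Of the 47 wide domains with ESC H3K27ac and no ESC H3K27me3, 42 were kept, and of the 38 with both marks, 35 were. Of the 9 absent wide domains, 3 carried ESC H3K27me3. The widest, of 25.9 kb at chr10:55520395-55546320 in block 10b, was covered by H3K4me3 over 87.7% in ESC and 77.9% in iPSC, and by H3K27me3 over 96.6% and 93.0%. H3K9me3 covered 2.36% of it in ESC and 47.0% in iPSC. The domain of 23.2 kb at chr6:2568041-2591214 in block 6a had 83.1% and 76.1% H3K4me3 with 8.91% and 48.3% H3K9me3. A second domain in block 6a, of 18.2 kb at chr6:3412232-3430431, had 88.5% and 50.01% H3K4me3 with 2.71% and 71.4% H3K9me3.

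The remaining pair of these differed in their place. The domain of 15.4 kb at chr3:179709323-179724721 in block 3b had 78.7% H3K4me3 in ESC and 48.0% in iPSC, with 68.0% iPSC H3K9me3. The domain of 12.6 kb at chr10:54672435-54684999 lay in the first bin of block 10b but 31.3 kb outside its fine edge. There H3K4me3 was 79.3% in ESC and 79.7% in iPSC, and H3K9me3 0% and 24.1%. Among all 11 ESC H3K27me3 domains of at least 10 kb in the blocks, found in 7 blocks, 9 had less H3K4me3 in iPSC, the median H3K4me3 cover was 59.4% in ESC and 39.7% in iPSC, and iPSC H3K9me3 covered 13.6% to 81.4% of them.

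**Figure D5:**
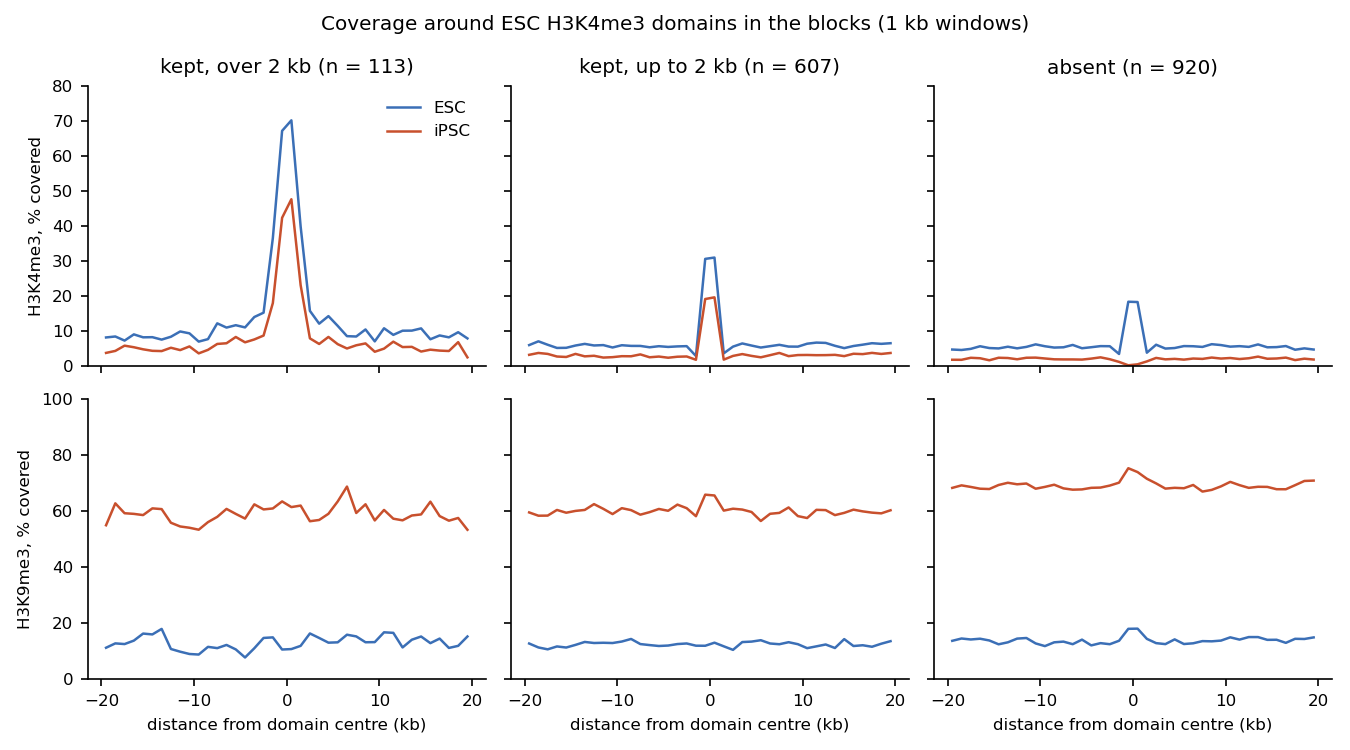
Mean percent of 1 kb windows covered by H3K4me3 (top) and H3K9me3 (bottom) in ESC (blue) and iPSC (orange), against the distance in kb from the centre of firm ESC H3K4me3 domains in the blocks. Columns show 113 kept domains over 2 kb, 607 kept domains of up to 2 kb and 920 domains absent in iPSC. iPSC H3K9me3 has no dip at the centre of the kept domains.

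iPSC H3K9me3 peaks also lay over the H3K4me3 that was kept. In the 113 kept wide domains, iPSC H3K9me3 covered 59.8% of the base pairs that iPSC H3K4me3 also covered, 64.4% of the rest of the domains and 59.5% of the 5 kb on each side. Kept and absent domains differed instead in the level at and around them. In the kilobase just right of the centre, iPSC H3K9me3 covered 61.4% at kept wide domains, 65.6% at kept narrower ones and 73.9% at absent ones, where ESC H3K9me3 covered 10.7% at the first and 18.0% at the last. From 10 to 11 kb right of the centre, iPSC H3K9me3 covered 60.4%, 57.5% and 70.4%. Domains outside the fine edges, where iPSC H3K9me3 was sparser, are included. Of single ESC H3K4me3 peaks, 170 of 1098 kept and 111 of 2088 absent ones lay there. How far this lowered the level at kept domains was not tested. Since the lists pool both iPSC lines, a peak of each mark at 1 place can come from different cells or lines, and these cannot be told apart here.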

How the data were processed

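The 8 peak lists are the authors' deposited files, with fold enrichment (a ratio) and −log10 q for each peak in MACS2's layout; MACS2, SAMtools 1.10, Picard and deepTools are named without roles, per the submitters' processing notes. Aligner, build, calling thresholds, depth and how libraries and inputs were combined were not stated there or in the labels. Chromosome lengths were taken as the furthest peak end; against the Panubis1.0 gene table these differed by over 5 Mb on 12 of 20 autosomes, so no gene or sequence was attached.

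Coverage is the merged length of a list's peaks within a region (Python 3.11.15, numpy 2.4.6, pandas 2.3.3, matplotlib 3.10.9). A peak belongs to a block when its midpoint lies in it, and is kept when at least 1 bp overlaps a peak of the same mark in the other list. Firm means −log10 q of at least 5 (H3K4me3, H3K27ac) or 2 (H3K27me3, H3K9me3). Intervals are 95% Wilson intervals. The interval code was tested on simulated lists. Regions named are the 5 blocks with the largest difference in H3K9me3, the longest block, that with the most ESC H3K4me3 peaks, the longest gap, and the 5 widest absent and kept domains; others were named after seeing values. The blocks and lists were chosen with earlier results of these data known. The alternatives varied bins, thresholds, overlap, list length, gaps and edge windows.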

Additional observations from a re-analysis of the deposited data

How the results depend on the processing

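The number of blocks was 17 to 29 over 7 other settings (main value 22), and the length between the fine edges 32.1 to 33.5 Mb over 3 (main value 32.9 Mb). The share of ESC H3K4me3 peaks absent in iPSC (main value 65.5%) was 74.0% when at least 50% of the peak had to be covered, 59.6% for ESC peaks with −log10 q of at least 5, 40.4% at 10, 68.8% with both lists at 5, and 67.3% between the fine edges. The same settings gave 91.2%, 84.1%, 67.9%, 89.8% and 90.0% for H3K27ac (main value 88.6%), and lists of equal length 82.1%. In all 9 alternatives for each mark the share was higher in the blocks than elsewhere, where it was 9.61% to 33.2% and 26.2% to 64.2%.

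With firm peaks alone the coverage difference, iPSC minus ESC, was -1.85 points for H3K4me3 (main value -2.06), -1.26 for H3K27ac (-1.94) and 22.8 for H3K27me3 (28.7). Lists of equal length gave -0.936 for H3K27ac and 15.2 for H3K27me3, and blocks at 30% gave 32.4 for H3K27me3. The 58 gaps became 176 at 5 kb, 17 at 20 kb and 2 between the fine edges. The share holding H3K4me3 was 34.7% at 5 kb, 94.1% at 20 kb and, for gaps of at least 2 kb between the fine edges, 12.0%, against 69.0%. Settings that use the fine edges were chosen after seeing the data.

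No paired analysis was possible because 1 pooled list per mark and cell type carries no replicate numbers, and for the same reason no replicate was left out. Depth is unknown, list lengths differ, and absence means only that no peak was called. Cell type and line cannot be told apart.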
